A study of Mus musculus with 2 samples.

Results

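The genes described here are the chaperones that fold procollagen and the enzymes and enhancers that trim its ends, read in lung fibroblasts of mice given bleomycin or saline. They were chosen by name, as 10 genes of 16040 in the deposited table: Serpinh1, Fkbp10, Ppib, Crtap and Sparc on the chaperone side, and Bmp1, Pcolce, Pcolce2, Adamts2 and Adamts14 on the processing side. The mice were of a Col1a2-EGFP strain, which carries a fluorescent reporter named after a type 1 collagen gene, and the labels give no age. The bleomycin library came from fibroblasts of 3 mice on day 14 after bleomycin, a DNA-damaging drug used to cause lung fibrosis, was put into the trachea. The saline library came from fibroblasts of 3 mice on day 14 after saline was given by that route. Dissociated lung cells without lineage markers and with green fluorescence were sorted, so both libraries hold cells selected by a collagen reporter, and the mice of a group share 1 library. The assay was SAGE (serial analysis of gene expression), in which each transcript is counted through 1 tag near its 3′ end.

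Procollagen chains fold into a triple helix in the endoplasmic reticulum (ER), where prolyl isomerases and a collagen-specific chaperone act on them before export. Outside the cell the propeptides at both ends are cut off. Adamts2 and Adamts14 cut the amino end and Bmp1 the carboxyl end, and Pcolce and Pcolce2 speed the carboxyl cut by binding the propeptide. Loss of several of these proteins causes brittle bone or fragile skin disease in people, and fibroblasts are the main makers of fibrillar collagen in lung.

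What may have been counted is shown first, because SAGE counts a transcript through 1 tag. The labels do not name the enzyme that anchors the tags. SAGE commonly uses an enzyme that cuts at CATG. The site nearest the 3′ end of 1 GENCODE M21 transcript per gene is given here with the next 22 bases, the site in capitals. These are predicted tags and not sequences read from the libraries. The printed tag was the last in 2 of 6 coding transcripts of Sparc, 4 of 7 of Serpinh1 and 3 of 6 of Pcolce. It was the last in 1 of 2 coding transcripts for Fkbp10 and for Adamts14. Other transcripts of these 5 genes may give another tag or none, and which were counted is not known.
Serpinh1: CATGaacttttgtttttctccctttt
Fkbp10: CATGaatctgagtgacgagagcctgc
Ppib: CATGgatgtggtacggaaggtggaga
Crtap: CATGttcagaaagacagtcttctgtg
Sparc: CATGcaaactctcacagcaatgtgaa
Bmp1: CATGccctcctgtcagtggggccggg
Pcolce: CATGaagaaaggagccagttatctgc
Pcolce2: CATGtaaaataaagataaataaacta
Adamts2: CATGaagctcttatttctggggtgtt
Adamts14: CATGtgtggaccggcctggagatgct
Each of the 10 predicted tags occurred in transcripts of its own gene and of no other gene, on either strand, so Pcolce and Pcolce2 do not share a tag, nor do Adamts2 and Adamts14. The site lay 37 bases from the transcript end in Pcolce2 and 528 bases from it in Adamts2. It fell in the coding sequence for Ppib and Pcolce and in the 3′ untranslated region for the other genes. For Bmp1 the deposited table names a non-coding transcript record and the predicted tag comes from a coding transcript, so which Bmp1 transcripts were counted is not known. In the RefSeq gene table Fkbp10 overlaps Nt5c3b and Ppib overlaps Snx22, and Crtap, Bmp1, Pcolce2, Adamts2 and Adamts14 overlap 1 or 2 non-coding genes or a pseudogene each. Serpinh1, Sparc and Pcolce overlap none. Whether tags were assigned by strand is not stated, so reads of such partners cannot be told apart. Nt5c3l, the older symbol of Nt5c3b, had 28 counts in the bleomycin and 27 in the saline library, and Snx22 had 0 bleomycin and 1 saline counts.

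The bleomycin library held 1099840 counts and the saline library 1080798, and 1 count was worth 0.909 CPM in the bleomycin and 0.925 CPM in the saline library (CPM are counts scaled to a library of 1000000). Where no tag was counted, a level of as much as 2.73 CPM in the bleomycin and 2.78 CPM in the saline library remains possible. Ratios are bleomycin over saline after scaling by the trimmed mean of M values (TMM), and ranges in brackets are exact 95% intervals that cover counting error only. A gene was called when its ratio was at least 2 in either direction and its exact binomial test, adjusted over 9369 genes with at least 10 counts, gave an adjusted p under 0.05. With 1 library a group the differences have no replicate check, and the test compares the libraries and not the conditions. Over all genes tested, 8.11% were called higher and 8.59% lower. Of 8 fibroblast genes, all counted in both libraries, 2 were called higher and 2 lower, with a median log2 ratio of -0.09. Col1a1 had 7925 bleomycin and 2714 saline counts, whereas Dcn had 1606 bleomycin and 4861 saline counts and Tcf21 had 93 bleomycin and 338 saline counts. Pdgfra had 323 bleomycin and 509 saline counts and was not called. Ptprc, the leukocyte antigen CD45, had 1 bleomycin and 0 saline counts. Epcam, an epithelial adhesion protein, had 0 counts in the bleomycin library and 1 in the saline library. Endothelial markers summed to 39 counts in the bleomycin library and 615 in the saline library over 14 genes. Airway markers summed to 171 bleomycin and 586 saline counts, of which Tppp3 gave 153 bleomycin and 535 saline counts. Alveolar type 2 markers summed to 10 bleomycin and 166 saline counts, of which Sftpc gave 7 bleomycin and 154 saline counts, and pericyte markers to 164 bleomycin and 298 saline counts. Smooth muscle markers summed to 2792 bleomycin and 2070 saline counts, although 3 of 8 were called lower and 1 higher, with a median log2 ratio of -0.46. Mesothelial markers summed to 140 bleomycin and 163 saline counts, of which Upk1b gave 131 bleomycin and 154 saline counts. Leukocyte markers summed to 8 bleomycin and 9 saline counts.

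The chaperone genes all had ratios above 1, and the trimming genes divided. All 10 genes passed the minimum count. In the bleomycin library 4 were called higher (Sparc, Bmp1, Adamts14 and Fkbp10) and 1 lower (Pcolce2). The background over all genes tested was 8.11% called higher and 8.59% called lower. The other 5 had ratios short of 2 in either direction. Without the 2-fold rule, 7 of the 10 were higher and 3 lower at an adjusted p under 0.05 in the exact binomial test, against a background of 13.8% of genes higher and 14.1% lower. The median log2 ratio of the 10 was 0.59, and that of all genes tested was 0.02. Together the 10 genes took 2.15% of the bleomycin library (2.12 to 2.17) and 1.28% of the saline library (1.26 to 1.30). Without Sparc the order turned, with 0.321% of bleomycin counts (0.310 to 0.331) and 0.496% of saline counts (0.483 to 0.510). Without Sparc, Pcolce and Pcolce2, the other 7 genes took 0.217% of bleomycin counts (0.208 to 0.226) and 0.164% of saline counts (0.157 to 0.172).

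**Figure D1:**
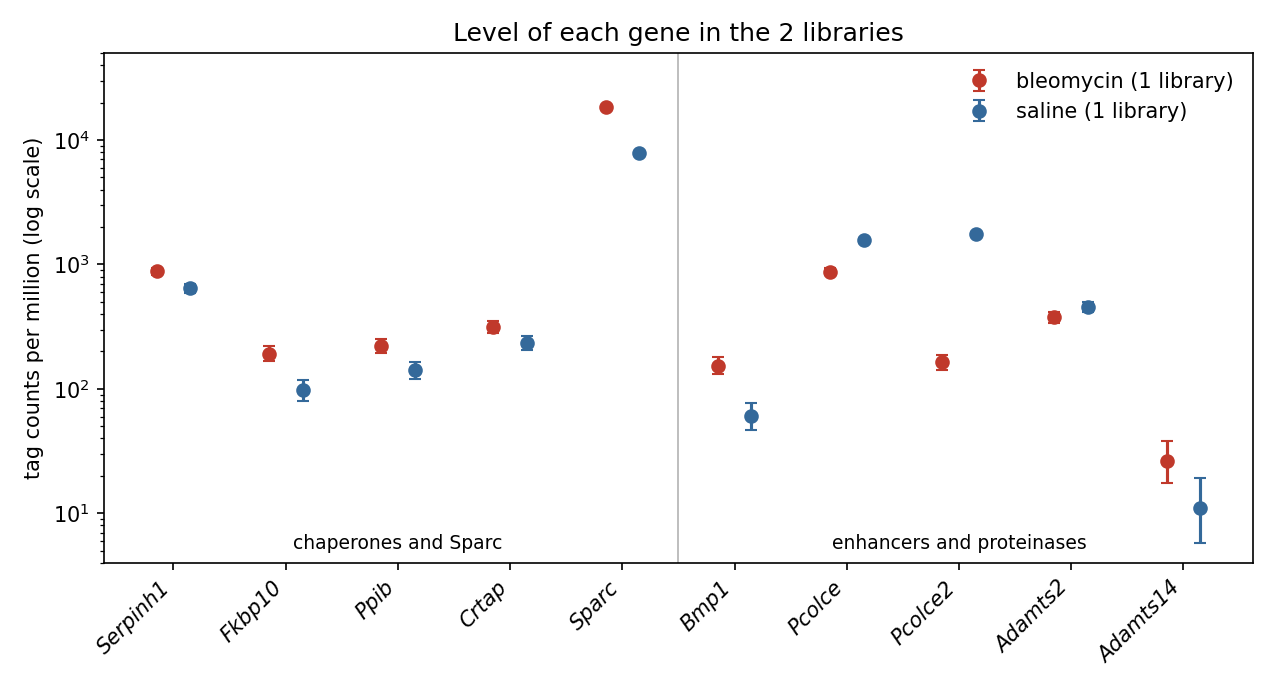
Level of each gene in CPM on a log scale in the bleomycin library (left point of each pair) and the saline library (right point), with exact Poisson 95% intervals. Sparc stands at 18300 CPM in the bleomycin library and 7860 CPM in the saline library, above all the others, and the pairs of Pcolce, Pcolce2 and Adamts2 are the ones with the bleomycin point lower.

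Sparc encodes a secreted glycoprotein that binds collagen and helps it assemble outside the cell. It had 20083 counts in the bleomycin library, where only 1 gene of the table had more, and 8491 counts in the saline library, where it ranked 5. Its ratio was 2.39 (2.33 to 2.45), and it was called higher. Sparc made up 85.1% of the counts of the 10 genes in the bleomycin library (84.6 to 85.5) and 61.3% in the saline library (60.5 to 62.1). Endothelial cells also express Sparc. Markers of endothelium stood at 35.5 CPM in sum in the bleomycin library, against 569 CPM in the saline library. Of the 11 tested members, 11 were called lower, against 8.59% of all genes tested. Pecam1 had 3 bleomycin and 53 saline counts. Kdr had 0 bleomycin and 8 saline counts, Flt1 had 0 bleomycin and 2 saline counts, and Emcn had 0 in both. Kdr, Flt1 and Emcn were too low to be tested. The part of endothelial cells in the Sparc result was not tested. Among relatives of Sparc, Sparcl1 had 7614 counts in the bleomycin and 4775 in the saline library, a ratio of 1.61 (1.56 to 1.67) that was not called. Fstl1, a secreted follistatin-like protein with a Sparc-type calcium-binding region, had 3512 bleomycin and 1709 saline counts and was called higher at 2.08 (1.96 to 2.20). The other 3 tested relatives, Smoc1, Smoc2 and Spock2, had ratios from 0.337 to 0.993 and were not called.

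The 4 chaperones of the ER all had ratios above 1, and 1 of them was called. Fkbp10, a prolyl isomerase of procollagen whose loss causes brittle bones, had 211 counts in the bleomycin library and 106 in the saline library. Its ratio of 2.01 (1.59 to 2.57) lies just inside the 2-fold rule, and with total counts in place of TMM it was 1.96, which ends the call. Ppib, the isomerase cyclophilin B, had 243 counts in the bleomycin and 153 in the saline library, giving 1.61 (1.31 to 1.98). Its upper limit lies just under 2. Serpinh1, the collagen-specific chaperone that clasps the folded triple helix, had 972 counts in the bleomycin and 693 in the saline library and a ratio of 1.42 (1.29 to 1.57). Crtap, which forms a complex with Ppib and the prolyl 3-hydroxylase P3h1, had 346 bleomycin and 254 saline counts, which gives a ratio of 1.38 (1.17 to 1.63). P3h1, listed under its older symbol Lepre1, had 37 counts in the bleomycin and 17 in the saline library and was called higher at 2.20 (1.21 to 4.17). Of the 6 pairs among the 4 chaperones, 4 had an interval of their ratio of ratios that held 1. Fkbp10 counts per Crtap count were 1.46-fold higher in the bleomycin library (1.09 to 1.96), and Serpinh1 counts per Fkbp10 count were 1.42-fold lower (1.10 to 1.85). Sparc counts per Serpinh1 count were 1.69-fold higher in the bleomycin library (1.52 to 1.87), whereas for Sparc per Fkbp10 the interval of 0.931 to 1.51 held 1.

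**Figure D2:**
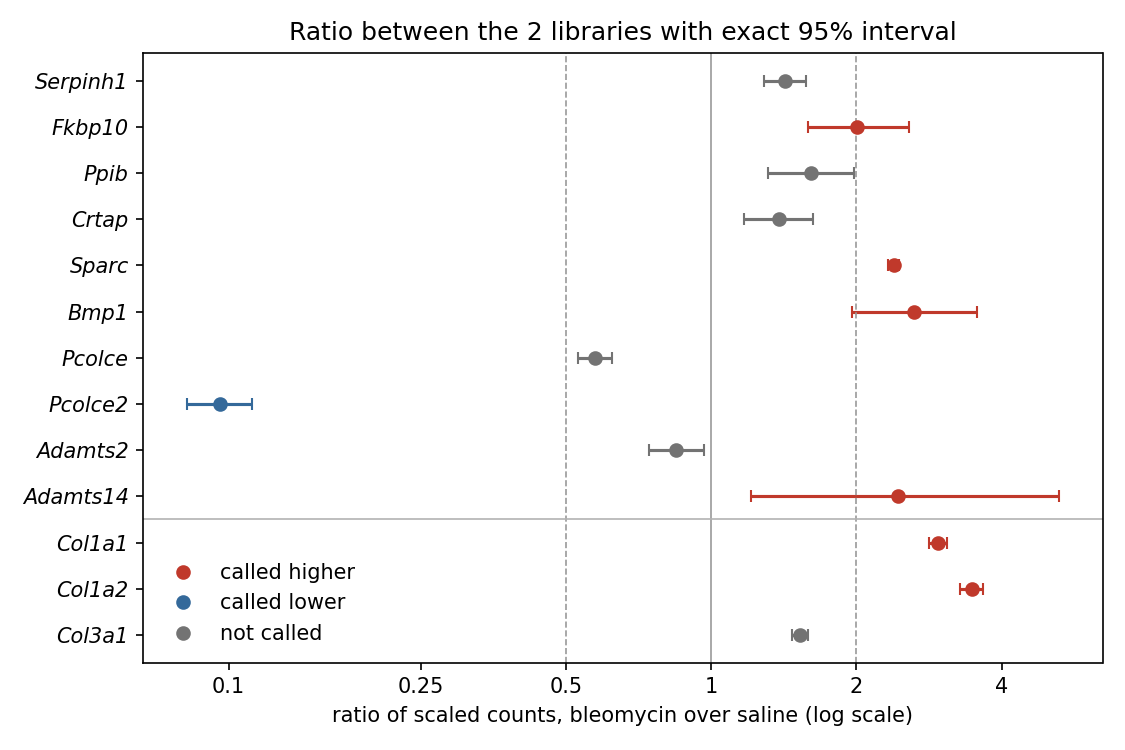
Ratio of scaled counts, bleomycin over saline, on a log scale for the 10 genes and, under the line, Col1a1, Col1a2 and Col3a1, with exact 95% intervals. Dashed lines mark 2-fold in either direction: the 5 genes in the top rows lie to the right of 1, and Pcolce2 lies at 0.0961.

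Bmp1, the carboxyl propeptide proteinase, had 169 counts in the bleomycin library and 65 in the saline library. It was called higher at 2.63 (1.96 to 3.56), the largest ratio of the 10 genes. Its coding neighbours on chromosome 14 are Phyhip and Sftpc, a surfactant gene of alveolar type 2 cells that was called lower in the bleomycin library. The proteinases of the amino end did not share a direction. Adamts2 had 413 counts in the bleomycin library and 493 in the saline library, a ratio of 0.847 (0.742 to 0.968) that was not called. Its adjusted p in the exact binomial test was 0.0499, at the threshold, and ran from 0.0172 to 0.0764 over the scalings tried. Adamts14, a related enzyme, had 29 bleomycin and 12 saline counts and was called higher at 2.44 (1.21 to 5.26). That call rests on few counts and was lost with Bonferroni adjustment. Adamts14 made up 6.56% of the Adamts2 and Adamts14 counts in the bleomycin library (4.44 to 9.29) and 2.38% in the saline library (1.23 to 4.11), so Adamts2 supplied most of them in both. Adamts3, the other enzyme that cuts amino propeptides, had 2 bleomycin and 4 saline counts and was not tested. Set against the carboxyl side, there were 262 Adamts2 and Adamts14 counts per 100 Bmp1 counts in the bleomycin library and 777 in the saline library, which is 2.97-fold lower (2.15 to 4.13).

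The enhancers were lower in the bleomycin library than in the saline library, unlike their partner proteinase. Pcolce2 had 180 counts in the bleomycin library and 1895 in the saline library. It was called lower, by 10.4-fold (8.93 to 12.2), and 0.6% of tested genes had a lower log2 ratio. Pcolce had 963 counts in the bleomycin library and 1692 in the saline library, giving 0.576 (0.531 to 0.623), which is 1.74-fold lower and was not called at 2-fold. Pcolce2 supplied 15.7% of the counts of the pair in the bleomycin library (13.7 to 18.0) and 52.8% in the saline library (51.2 to 54.5). With both enhancers summed, there were 676 counts per 100 Bmp1 counts in the bleomycin library and 5520 in the saline library, which is 8.16-fold lower (6.04 to 11.1).

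Pcolce2 is also known as a gene of adventitial fibroblasts, the cells around airways and vessels. Of 16 tested genes of adventitial fibroblasts, 11 were called lower and 0 higher, against 8.59% lower and 8.11% higher over all genes tested. The median log2 ratio of the 16 was -1.70. The other 5 were Mfap5 at 1.60 (1.43 to 1.80), Igfbp4 at 1.19 (1.08 to 1.30), Il33 at 0.965 (0.617 to 1.51), Ly6c1 at 0.816 (0.649 to 1.02) and Ly6a at 0.740 (0.651 to 0.840). The 16 summed to 7389 counts in the bleomycin library and 29690 in the saline library, and Dpp4 was at 0 counts in the bleomycin library. Gsn, the actin-severing protein gelsolin, had 2548 counts in the bleomycin and 19346 in the saline library, and Pi16, a marker of these cells, had 296 bleomycin and 964 saline counts. In a sorted population, fewer cells of a type and less RNA per cell cannot be told apart. Relative to the sum of the 16 genes, Pcolce2 was 2.62-fold lower in the bleomycin library (2.24 to 3.08). It was 3.23-fold lower relative to Pi16 alone (2.63 to 3.97) and 1.39-fold lower relative to Gsn alone (1.18 to 1.63). Pcolce, relative to the same 16 genes, was 2.29-fold higher (2.10 to 2.49). Gsn holds most saline counts of that sum. Without it, Pcolce2 was 4.93-fold lower (4.21 to 5.79) and Pcolce 1.22-fold higher (1.11 to 1.33). Dcn, also one of the 8 fibroblast genes above, then gave 1606 of 4841 bleomycin and 4861 of 10344 saline counts. The part of such cells in the Pcolce2 result was not tested.

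The substrates of these proteins were then set beside them. Col1a1 was called higher at 2.95 (2.83 to 3.09), and Col1a2, whose name the reporter carries, had 5613 counts in the bleomycin and 1636 in the saline library and was called higher at 3.47 (3.28 to 3.67). Col3a1, the chain of type 3 collagen, had 6186 bleomycin and 4087 saline counts and was not called at 1.53 (1.47 to 1.59). In all, 6 of 7 tested fibrillar procollagen genes were called higher and 0 lower, against 8.11% higher and 8.59% lower over all genes tested. Their median log2 ratio was 1.72. Col5a3, a type 5 chain, stood at 5.65 (4.14 to 7.85). Col11a1, a type 11 chain, had 26 counts in the bleomycin library and 0 in the saline library. Against a floor of 3 counts in the saline library it was 8.76-fold higher, and the exact 95% lower limit of its ratio was 6.63.

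Counts per type 1 procollagen count do not depend on library scaling, and for 8 of the 10 genes their interval lay below 1, with 0 above. Over all genes tested, 77.6% lay below 1 on this measure and 1.19% above, so the share below 1 among the 10 is close to that of genes at large. Per 100 counts of Col1a1 plus Col1a2, Serpinh1 had 7.18 counts in the bleomycin library and 15.9 in the saline library, 2.22-fold lower (2.0 to 2.46). Crtap was 2.28-fold lower on this measure (1.93 to 2.70), Ppib 1.96-fold lower (1.59 to 2.42), Fkbp10 1.56-fold lower (1.22 to 1.99) and Sparc 1.32-fold lower (1.26 to 1.37). On the processing side, Pcolce had 7.11 counts per 100 in the bleomycin library and 38.9 in the saline library, 5.47-fold lower (5.01 to 5.97). Pcolce2 had 1.33 counts per 100 in the bleomycin library and 43.6 in the saline library, 32.8-fold lower (28.0 to 38.5), and Adamts2 was 3.71-fold lower (3.24 to 4.26). For Bmp1 and Adamts14 the intervals of the ratio, 0.623 to 1.13 and 0.384 to 1.67, held 1. The choice of collagen changed these counts. Over all genes tested, 41.4% lay below 1 per Col3a1 count and 5.44% above. Per Col3a1 count, 3 genes lay below 1 (Pcolce, Pcolce2 and Adamts2) and 3 above: Bmp1 at 1.72 (1.28 to 2.33), Sparc at 1.56 (1.49 to 1.64) and Fkbp10 at 1.32 (1.03 to 1.68). The interval held 1 for the other 4, with Serpinh1 at 0.927 (0.833 to 1.03).

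**Figure D3:**
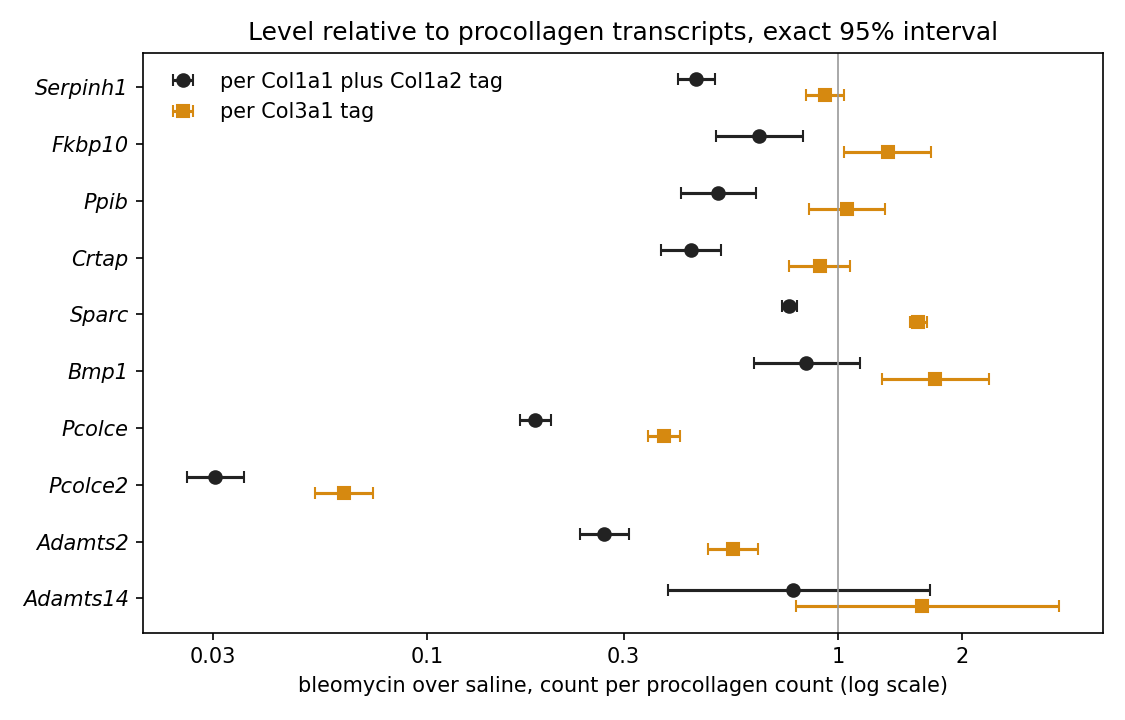
Counts of each gene per count of Col1a1 plus Col1a2 (black circles) or of Col3a1 (orange squares), bleomycin over saline on a log scale, with exact 95% intervals. The black circles lie left of 1, with intervals of Bmp1 and Adamts14 that cross it, while the squares of Serpinh1, Ppib, Crtap and Adamts14 have intervals that hold 1.

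Other genes of the pathway were read from 9 lists, with 102 tested genes besides the 10. Of these, 18 (17.6%) were called higher and 9 (8.82%) lower in the bleomycin library, against backgrounds of 8.11% higher and 8.59% lower. Their median log2 ratio was 0.31. The fibrillar procollagens described above are 1 of the 9 lists, and their 7 tested genes gave 6 of the 18 called higher. Hydroxylases and glycosyltransferases of procollagen had 2 of 11 called higher and 1 lower, with a median of 0.69. P4hb, the shared subunit of prolyl 4-hydroxylase, had 659 counts in the bleomycin and 413 in the saline library and was not called at 1.61 (1.42 to 1.83), while P4ha3, a catalytic subunit, was called higher at 3.60 (2.04 to 6.72). Leprel2, a prolyl 3-hydroxylase family member, had 4 bleomycin and 21 saline counts and was called lower, by 5.19-fold (1.75 to 20.8).

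General folding genes of the ER, with Ppia, a cytosolic cyclophilin, listed among them, had 2 of 19 called higher and 0 lower. Their median was 0.14. Over all genes tested, 8.11% were called higher and 8.59% lower, so most genes at large were not called either. Hspa5, the ER chaperone BiP, had 1249 counts in the bleomycin library and 1697 in the saline library, a ratio of 0.744 (0.691 to 0.801). Ppic, the isomerase cyclophilin C, had 1436 bleomycin and 453 saline counts and was called higher at 3.21 (2.88 to 3.57), and Creld2, an ER stress-induced protein, had 27 bleomycin and 11 saline counts and was called higher at 2.48 (1.19 to 5.55). The Creld2 call was lost with DESeq2 size factors or no minimum count (adjusted p = 0.0513 in the exact binomial test in both). None of the 4 tested isomerases of the Fkbp10 family was called. Fkbp9 stood at 0.973 (0.872 to 1.08), Fkbp7 at 0.951 (0.761 to 1.19), Fkbp2 at 0.674 (0.374 to 1.19) and Fkbp14, which also acts on procollagen, at 1.10 (0.720 to 1.69). Regulators and effectors of ER stress had 0 of 11 called higher and 2 lower, against the same backgrounds. Their median was -0.40. Herpud1, which serves the removal of misfolded ER proteins, had 133 counts in the bleomycin library and 278 in the saline library and was called lower, by 2.07-fold (1.68 to 2.56). Atf4, a stress transcription factor, had 50 bleomycin and 133 saline counts and was called lower, by 2.63-fold (1.89 to 3.72).

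Genes that carry cargo out of the ER had 1 of 27 called higher and 1 lower, with a median of 0.38. The background over all genes tested was 8.11% called higher and 8.59% called lower. Kdelr2, a receptor that returns ER proteins, had the most counts of them, with 627 in the bleomycin and 460 in the saline library, and was not called at 1.38 (1.22 to 1.56). Sec24b, a coat protein of export vesicles, was called higher at 2.64 (1.36 to 5.46), and Preb, which activates the coat, was called lower, by 2.04-fold (1.33 to 3.19). Mia3, the receptor that loads procollagen at exit sites, had 109 bleomycin and 177 saline counts and was not called at 0.623 (0.486 to 0.795).

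**Figure D4:**
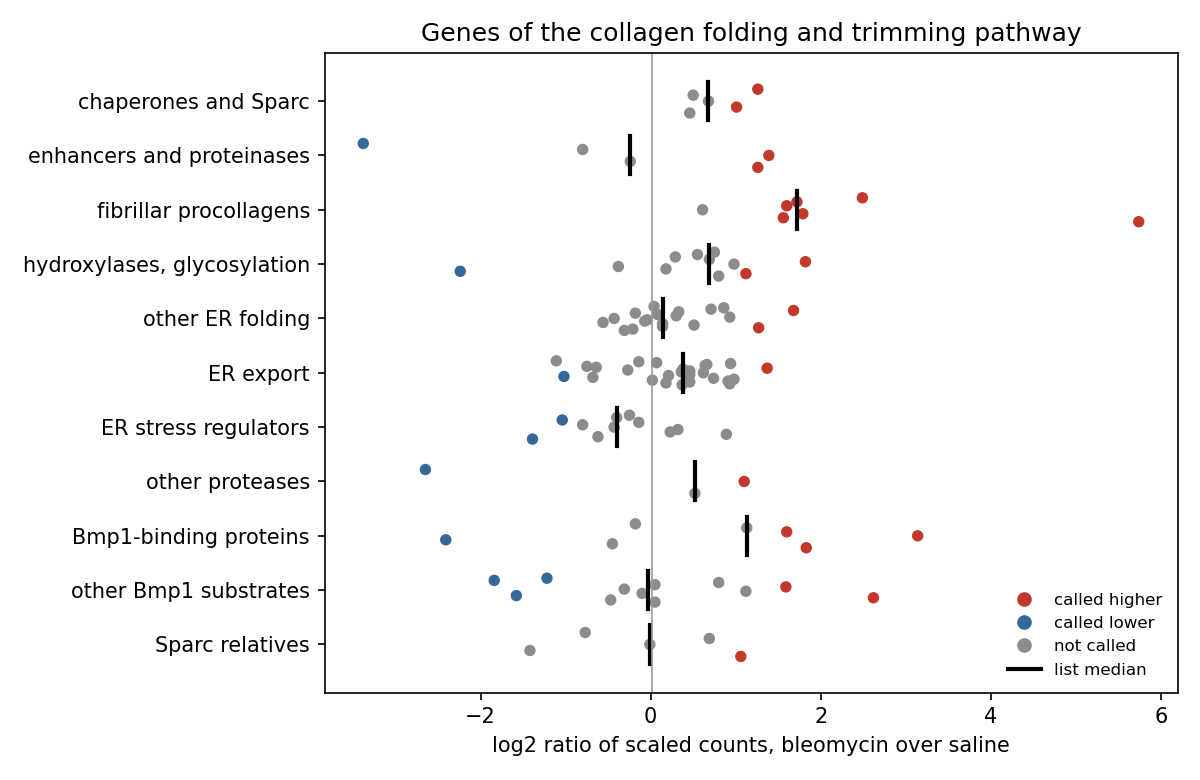
Log2 ratio, bleomycin over saline, of each tested gene in the lists, coloured by call, with the list median as a black bar and the median of all genes tested (0.02) as a grey line. Fibrillar procollagens have the highest median (1.72) and ER stress regulators the lowest (-0.40).

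A list of proteins that bind or modulate Bmp1 or its substrates had members called in both directions. Of 7 tested, 3 were called higher and 1 lower, with a median of 1.13. The backgrounds over all genes tested were 8.11% higher and 8.59% lower. Fn1, fibronectin, which binds Bmp1, had 8890 counts in the bleomycin library and 1018 in the saline library and was called higher at 8.83 (8.28 to 9.43). Postn, periostin, which helps place Bmp1 on the matrix, was called higher at 3.03 (2.59 to 3.55), and A2m, a protease inhibitor, at 3.68 (1.85 to 7.95). Fbln1, a fibulin of the matrix, had 111 bleomycin and 599 saline counts and was called lower, by 5.34-fold (4.35 to 6.59). It is also on the adventitial list. Substrates of Bmp1 other than fibrillar procollagen had 2 of 12 called higher and 3 lower, against the same backgrounds. Their median was -0.03. Lox, the collagen crosslinking enzyme, was called higher at 3.03 (2.23 to 4.18) and Col7a1, the anchoring fibril collagen, at 6.28 (3.85 to 10.8). The small proteoglycans Dcn and Ogn were called lower, by 2.99-fold (2.83 to 3.17) and 3.57-fold (3.27 to 3.92), and so was Tgfbr3, a coreceptor for TGF-beta, by 2.34-fold (1.92 to 2.86). Among other proteases that could act on propeptides or activate the trimming enzymes, 3 were tested. Pcsk5, a proprotein convertase, had 247 counts in the bleomycin and 116 in the saline library and was called higher at 2.15 (1.72 to 2.71), Pcsk6 had 4 bleomycin and 28 saline counts and was called lower, by 6.92-fold (2.42 to 27.2), and Furin was not called at 1.44 (0.903 to 2.32). Tll1, a close relative of Bmp1, had 1 bleomycin and 0 saline counts.

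Promoter sequence from RefSeq (GRCm38.p6) was found for 8 of the 10 genes. It is shown for Sparc, the most abundant gene called higher, and for the enhancer pair Pcolce and Pcolce2, which had the 2 smallest ratios. Each window runs from 250 bases before the transcript start to 50 after it. Capitals mark matches on either strand to any of 4 motifs, none of which overlap in these windows. The searched letters were TATAAA for the TATA motif, CCAAT for the motif named after it, GGGCGG for the GC box and TGACTCA for the AP-1 motif.
Sparc promoter, chr11:55420031-55420330, strand -: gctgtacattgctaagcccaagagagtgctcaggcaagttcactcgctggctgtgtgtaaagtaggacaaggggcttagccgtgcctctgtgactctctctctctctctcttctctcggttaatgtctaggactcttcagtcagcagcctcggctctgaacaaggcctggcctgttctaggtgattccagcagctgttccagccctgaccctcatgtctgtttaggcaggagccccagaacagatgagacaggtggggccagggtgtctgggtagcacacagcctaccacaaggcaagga
Pcolce promoter, chr5:137611355-137611654, strand -: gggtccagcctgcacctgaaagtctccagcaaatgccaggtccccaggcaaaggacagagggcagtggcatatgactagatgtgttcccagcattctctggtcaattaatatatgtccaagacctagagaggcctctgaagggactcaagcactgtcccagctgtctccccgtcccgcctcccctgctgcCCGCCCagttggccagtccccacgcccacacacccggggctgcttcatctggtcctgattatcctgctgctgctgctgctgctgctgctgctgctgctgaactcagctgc
Pcolce2 promoter, chr9:95637378-95637677, strand +: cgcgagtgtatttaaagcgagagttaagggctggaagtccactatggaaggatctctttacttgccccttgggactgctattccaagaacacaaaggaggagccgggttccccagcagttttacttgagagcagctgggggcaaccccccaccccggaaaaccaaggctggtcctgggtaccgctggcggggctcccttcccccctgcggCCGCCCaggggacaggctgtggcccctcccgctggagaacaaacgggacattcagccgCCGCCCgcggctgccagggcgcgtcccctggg
The Sparc window held 0 matches to these 4 motifs. The Pcolce window held 1 GC box and the Pcolce2 window 2, and 35.7% of all 32851 promoter windows hold at least 1. TATAAA is found in 13.6% of them, CCAAT in 37.4% and TGACTCA in 5.2%. The GC content was 55.3% for Sparc, 59.3% for Pcolce and 63.7% for Pcolce2.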

How the data were processed

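Each group is 1 SOLiD SAGE library of sorted lung fibroblasts from 3 mice. The deposited table gives whole-number counts per gene, with the gene symbol and a transcript record. Per the submitters' processing notes, BWA 0.6.2 and mm9 were used, with no role stated. Tag assignment, strand use and any scaling before deposit are not stated, so every test and interval assumes unscaled counts. After 1 blank row was left out, 16040 genes remained.

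Library sizes were scaled by TMM in edgeR 4.0.16 (R 4.3.3), with factors of 0.986 for bleomycin and 1.01 for saline. The quasi-likelihood test cannot be fitted with 1 library per group, so a two-sided exact binomial test with Benjamini-Hochberg adjustment was used. CPM are counts over the unscaled library total. A prior count of 0.5 enters the log2 ratios, and ratio intervals are exact (Clopper-Pearson, or conditional for ratios of counts within libraries). Python 3.11.15, scipy 1.17.1, pandas 2.3.3 and DESeq2 1.42.0 (size factors alone) were also used. The test was tried on simulated data.

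The 10 genes, the lists and the pairs set against each other were chosen with earlier results of these data known. Genes of a pathway list are named when they have the most counts of it or are among up to 3 called with the largest and up to 3 with the smallest ratios. Col1a1, Col1a2, Col3a1, Pecam1, Sftpc, Ptprc and Epcam were named whatever their values. Mia3, Fkbp2, Fkbp7, Fkbp9, Fkbp14, Adamts3, Tll1, Furin, Smoc1, Smoc2, Spock2, Nt5c3l, Snx22, Kdr, Flt1, Emcn, Dpp4, Pi16, Phyhip, Tcf21, Pdgfra, Upk1b, Mfap5, Igfbp4, Il33, Ly6a and Ly6c1 were named for their role or place after their values were seen. Cdh5, Esam, Ramp2, Tek, Cox4i2, Cnn1 and Scgb1a1 are named because their calls depended on a setting.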

Additional observations from a re-analysis of the deposited data

How the results depend on the processing

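Every log2 ratio of the 10 genes kept its direction with total counts, DESeq2 size factors, upper quartile scaling and a prior count of 5. The other alternatives tried were no minimum or 50 counts, other fold limits and Bonferroni adjustment. Those bear on which genes are tested or called and cannot change the direction of a ratio. Adamts14 was not tested at a minimum of 50 counts. Over the scalings the ratio of Fkbp10 ran between 1.96 and 2.04, so its call was lost with total counts (1.96) and with DESeq2 size factors (1.99). Bonferroni adjustment ended the calls of Adamts14, A2m, Lepre1, Leprel2, Pcsk6, Preb, Sec24b, Creld2 and Dpp4. It also ended those of the endothelial markers Cdh5, Esam and Ramp2, so not all 11 endothelial calls held, and of Cnn1 and Scgb1a1. At a minimum of 50 counts Leprel2, Pcsk6, Sec24b, Creld2, Dpp4 and Col11a1 were not tested either, nor were the markers Cdh5, Esam, Ramp2, Tek, Cox4i2 and Cnn1. The comparison with adventitial genes without Gsn, and the library share without Sparc, Pcolce and Pcolce2, were added after seeing the data. A ratio of at least 3 left 0 of the 10 called higher, and a ratio of at least 1.5 gave 2 called lower. Per Col3a1 count, 3 intervals lay below 1 and 3 above. Over the 9 pathway lists, a ratio of at least 1.5 gave 33 called higher, and a ratio of at least 3 gave 4 called lower. The shares of all genes called at these other fold limits are not given, so these counts cannot be set against a background. The median log2 ratio of the other Bmp1 substrates was 0.05 with no minimum count, against -0.03. That of the Sparc relatives was 0.01 with upper quartile scaling and 0.69 with a minimum of 50 counts, against -0.01. These medians rest on few genes; the cause was not tested. No paired analysis was possible because each group is 1 library. Depth limits Adamts14, Adamts3, Tll1 and Leprel2, whose counts are small, and a difference between mice cannot be seen in a single library.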
